A study of Mus musculus with 4 samples.

Results

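Interferon-stimulated antiviral genes were followed in mouse bone marrow cells cultured with Flt3 ligand, a cytokine that drives dendritic cell development. The group holds 31 genes named by symbol, all 31 were found among the 26026 genes of the table, and all 31 passed a filter of a mean of at least 1 RPKM (reads scaled by transcript length and by library size) that 11786 genes passed in all. Polyadenylated RNA was sequenced from 4 libraries, with 1 library in each group, so every difference below is a value without replicates and none was tested. The groups were Nfkb1-/- cells (C57/B16; labelled Nfkb1 KO in the titles, here KO) at day 5, wild-type cells (C57/B16; WT) at day 5, KO cells at day 3 and WT cells at day 3. All 4 cultures received 100 ng/mL Flt3 ligand, fresh medium was given on day 3, and nothing in the labels describes an infection or an interferon treatment. The labels give neither the age of the mice nor how many gave marrow, nor which part of Nfkb1 was disrupted.

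Type I interferons act through a surface receptor and its kinases on factors such as Stat2, which joins Irf9 in a complex that binds a DNA element called ISRE (interferon-stimulated response element). Genes behind such elements encode sensors of viral RNA and DNA, enzymes that degrade or block viral RNA, and proteins that hold viruses at membranes. Some dendritic and progenitor cells are known to keep part of this programme on without infection. Nfkb1 encodes p105 and its processed form p50, an NF-kB subunit that pairs with RelA.

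To show what the induced genes share in sequence, the 300 bases from 250 before to 50 after the start were taken from RefSeq (GRCm38.p6), where 21 of the 31 genes had an entry. The ISRE core (GAAA, any 2 bases, GAAA), searched on both strands, occurred in 13 of these 21 genes (61.9%) and in 3.99% of all 27025 genes with an entry. The longer form, the core followed directly by CT, occurred in 6 (28.6%) and in 0.303% of all genes. The interferon gamma type element TTCNNNGAA, which can overlap the others, occurred in 6 of the 21 and in 9.55% of all genes, and the NF-kB type sequence (GGG, any 2 bases, TTTCC) occurred in 0 of the 21 and in 1.89% of all genes. A match is a string of letters and no record of binding, and the absence of one says only that these letters are not in this window. The 6 promoters printed here belong to genes the results turn on. Isg15, Oas1g and Oas1a differed most between genotypes among genes with an entry and a core match. Ifit1 and Rsad2 were among the genes with the largest differences between days. Bst2 had the lowest KO minus WT difference of the 31 at day 5. The promoters are written 5′ to 3′ along the gene, with every core match in capitals.
Isg15 (chr4:156200769-156201068, minus strand): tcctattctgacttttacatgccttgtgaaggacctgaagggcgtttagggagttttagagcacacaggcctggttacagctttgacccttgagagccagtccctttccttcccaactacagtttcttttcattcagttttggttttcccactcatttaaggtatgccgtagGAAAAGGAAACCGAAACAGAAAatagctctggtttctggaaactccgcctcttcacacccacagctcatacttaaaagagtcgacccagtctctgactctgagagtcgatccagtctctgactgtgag
Oas1g (chr5:120887564-120887863, minus strand): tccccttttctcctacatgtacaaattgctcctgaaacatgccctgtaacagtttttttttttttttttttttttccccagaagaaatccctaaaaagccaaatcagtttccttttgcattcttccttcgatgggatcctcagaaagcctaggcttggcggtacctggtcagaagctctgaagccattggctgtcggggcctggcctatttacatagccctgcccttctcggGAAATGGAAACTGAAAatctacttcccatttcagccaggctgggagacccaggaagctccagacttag
Oas1a (chr5:120907476-120907775, minus strand): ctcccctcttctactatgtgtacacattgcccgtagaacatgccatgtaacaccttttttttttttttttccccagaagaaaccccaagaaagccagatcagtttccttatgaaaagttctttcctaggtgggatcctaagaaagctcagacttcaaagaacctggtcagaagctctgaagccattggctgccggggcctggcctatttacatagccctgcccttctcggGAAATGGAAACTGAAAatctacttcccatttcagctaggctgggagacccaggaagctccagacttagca
Ifit1 (chr19:34640639-34640938, plus strand): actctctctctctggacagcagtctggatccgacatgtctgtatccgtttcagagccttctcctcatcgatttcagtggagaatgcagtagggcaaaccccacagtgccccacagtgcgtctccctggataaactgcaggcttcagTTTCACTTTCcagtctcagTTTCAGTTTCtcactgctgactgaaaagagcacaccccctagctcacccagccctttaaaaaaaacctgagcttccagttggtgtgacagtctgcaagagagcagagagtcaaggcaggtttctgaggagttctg
Rsad2 (chr12:26456403-26456702, minus strand): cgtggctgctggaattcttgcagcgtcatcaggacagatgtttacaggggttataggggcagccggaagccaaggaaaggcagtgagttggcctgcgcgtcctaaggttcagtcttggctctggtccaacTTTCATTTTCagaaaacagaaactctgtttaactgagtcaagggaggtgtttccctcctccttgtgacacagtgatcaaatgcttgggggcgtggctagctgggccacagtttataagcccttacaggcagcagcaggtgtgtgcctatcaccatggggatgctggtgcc
Bst2 (chr8:71537423-71537722, minus strand): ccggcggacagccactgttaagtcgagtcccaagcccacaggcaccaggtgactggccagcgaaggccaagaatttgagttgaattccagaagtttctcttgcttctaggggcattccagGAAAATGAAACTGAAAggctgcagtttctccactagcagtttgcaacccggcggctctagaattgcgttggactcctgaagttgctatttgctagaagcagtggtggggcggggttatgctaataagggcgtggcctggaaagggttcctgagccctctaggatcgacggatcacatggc

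In Isg15 the capitals join 3 overlapping core matches, beginning 78, 72 and 66 bases before the start. Oas1g and Oas1a, neighbours in the Oas gene cluster, share an unbroken run of 73 bases around a pair of overlapping matches just before the start. Ifit1 has 2 separate matches on the opposite strand, Rsad2 has 1, and Bst2 has 2 that overlap. The 13 genes with a core match had a median KO minus WT difference of 0.41 at day 5 on the log2(RPKM + 1) scale, and the 8 without had 0.35. Between days the same 13 and 8 genes had medians of -0.54 and -0.54 in KO and of -0.54 and -0.60 in WT. These medians were of like size with and without a match. Their ranges in KO were -1.47 to 0.54 with a match and -0.64 to -0.20 without, and in WT -1.56 to 0.49 and -1.42 to -0.12. The 10 genes without an entry are in neither set.

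Library totals, recovered from the steps in the RPKM values, lay between 15255070 and 16215214 reads. Member genes held between 117 reads (Oas1g, WT day 5) and 6584 reads (Ifitm3, KO day 3) in a library. Nfkb1 itself stood at 64.7 RPKM in KO and 114 RPKM in WT at day 5, and at 56.0 RPKM in KO and 74.8 RPKM in WT at day 3, lower in both KO libraries but not absent. Ratios below are followed by exact 95% intervals of the recovered reads, which cover counting error only. These are bulk cultures, in which fewer cells of a type and less RNA per cell cannot be told apart.

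Together the 31 genes summed to 1569 RPKM in KO and 1291 RPKM in WT at day 5, and to 2102 RPKM in KO and 1907 RPKM in WT at day 3. Their median level was 31.9 RPKM in KO and 21.9 RPKM in WT at day 5, against 42.8 RPKM in KO and 37.5 RPKM in WT at day 3. The programme was therefore measured well above the median of all genes passing the filter, which was 9.29 RPKM in KO and 9.34 RPKM in WT at day 5, and 9.38 RPKM in KO and 8.36 RPKM in WT at day 3. Of the 31 genes, 25 had their lowest level in WT at day 5, beside 11.9% of all genes passing the filter. In KO at day 3, 21 had their highest level, beside 18.1% of all genes, and 13 did with libraries rescaled by their median ratio, beside 14.4%. Levels spanned from Ifitm3, with a mean of 504 RPKM over the libraries, to Mx2, with 4.52 RPKM.

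**Figure D1:**
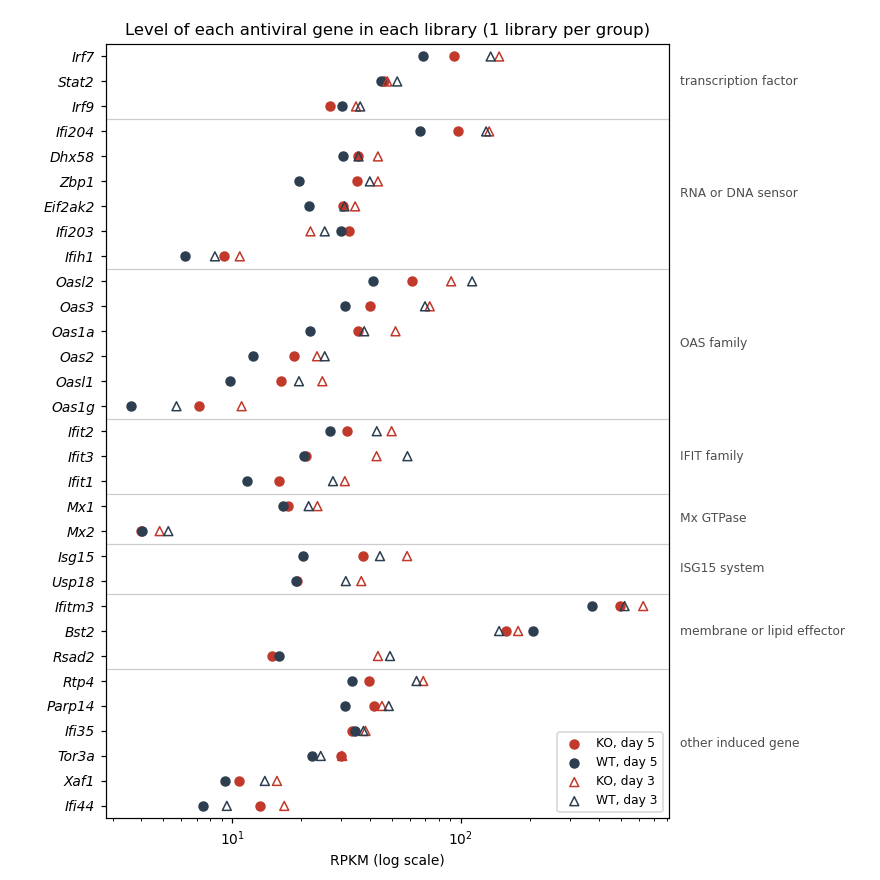
RPKM of each of the 31 genes (log axis, italic gene names, grouped by role) in KO day 5 (filled red circles), WT day 5 (filled dark circles), KO day 3 (open red triangles) and WT day 3 (open dark triangles), with 1 library each. The filled dark circle is the leftmost point of 25 genes, and Ifitm3 lies apart at the right with 374 to 627 RPKM.

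At day 5 antiviral genes were mostly higher in KO than in WT. The median difference in log2(RPKM + 1) was 0.40 over the 31 genes and 0.01 over all genes passing the filter. None of the 31 reached a difference of 1 in either direction, where 1.16% of all genes were higher and 3.22% lower by that much. With a smaller limit of 0.5, 10 of the 31 (32.3%) were higher, beside 8.54% of all genes, and 0 were lower, beside 11.5% of all genes. In all, 26 were above 0, beside 51.2% of all genes, and 5 (Bst2, Irf9, Rsad2, Ifi35 and Mx2) were below it, beside 48.8%. The oligoadenylate synthetase (OAS) genes gave 5 of the 10, and without the OAS family, left out after the values were seen, the median of the other 25 genes was 0.24 with 5 of them past 0.5.

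At day 3 the same genes were not displaced from the rest. Their median difference was 0.13, equal to the 0.13 of all genes, with 22 of the 31 above 0, beside 66.6% of all genes, and 9 below, beside 33.4%. None differed by 1, where 0.976% of all genes were higher and 0.882% lower. Ifi44 and Oas1g, 2 of the 31, were higher by 0.5, beside 10.8% of all genes, and 0 were lower by that much, beside 4.43%. Rescaling the libraries by their median ratio put the median of all genes at -0.02 and that of the antiviral genes at -0.04, with 17 of the 31 below 0. Of these, 4 were lower in KO at both days, beside 35.0% of all genes under that rescaling, and 13 at day 3 only, beside 17.4%. Irf7, Oas3, Mx1, Ifi35, Zbp1, Rtp4, Ifi204 and Eif2ak2 were the 8 whose order at day 3 turned under that rescaling. Across both days, 20 of the 31 (beside 41.2% of all genes) were higher in KO each time. The count was 12 with the median ratio rescaling, beside 31.7% of all genes, and 18 with libraries set to equal sums of RPKM, beside 39.4%. Irf9 and Rsad2 were lower in KO each time under all 3 scalings, Mx2 under all but equal sums, and Ifi35 under the 2 rescalings only. That made 3 genes as deposited, beside 23.3% of all genes. It made 4 with the median ratio, beside 35.0%, and 3 with equal sums, beside 27.6%.

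**Figure D2:**
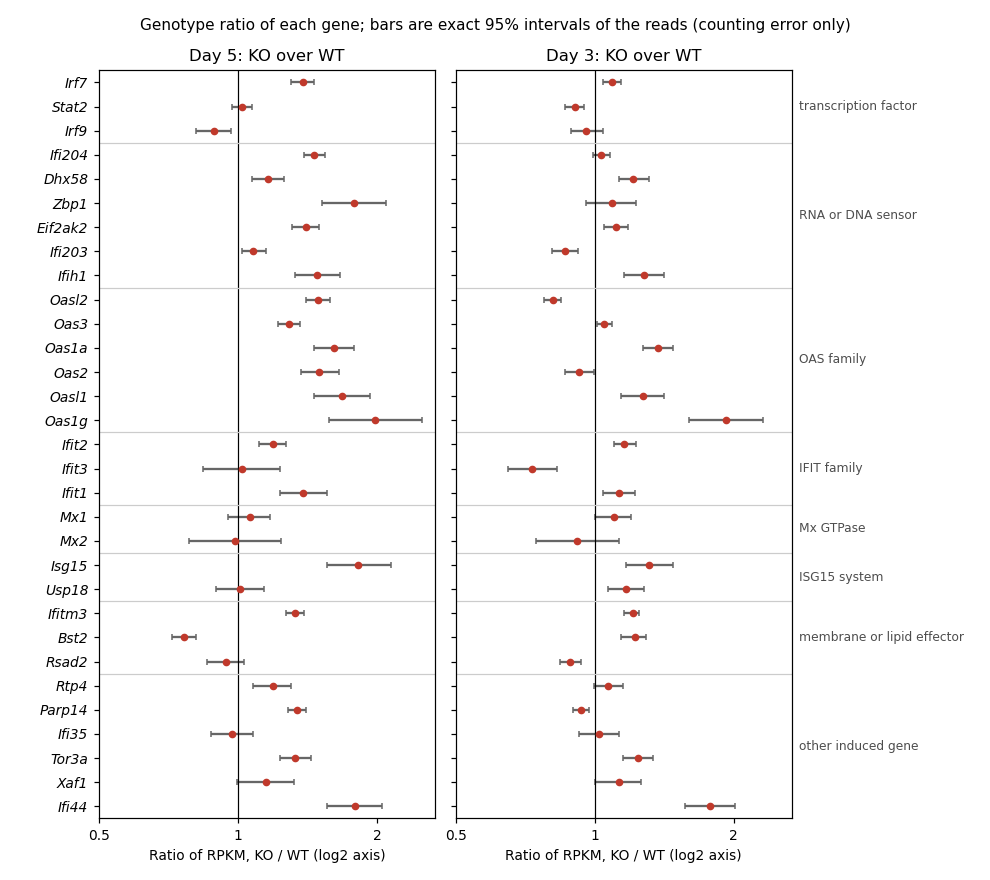
Ratio of RPKM in KO over WT for each gene (log2 axis) at day 5 (left) and day 3 (right), with exact 95% intervals of the reads as bars and 1 library per group. At day 5 the interval lay above 1 for 21 genes (29% of all genes) and below 1 for 2 (28%), and at day 3 it lay above 1 for 18 (41.1%) and below 1 for 7 (13.8%), where the share of all genes also depends on their reads.

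By day 5 the antiviral genes were lower than at day 3 in both genotypes. The median difference of day 5 minus day 3 was -0.40 in KO, where the median of all genes was 0.04, and -0.62 in WT, where it was 0.16. In KO 30 of the 31 genes lay below 0, beside 43.9% of all genes, 14 were lower by 0.5, beside 9.15%, and 1 (Ifi203) was higher by 0.5, beside 4.96%. In WT 29 lay below 0, beside 30.7% of all genes, 18 were lower by 0.5, beside 6.7%, and 0 were higher by 0.5, beside 13%. A difference of -1 or beyond was reached by 1 gene in KO (Rsad2), beside 3.01% of all genes, and by 6 in WT (Rsad2, Ifit3, Oasl2, Ifit1, Oas3 and Isg15), beside 2.05%. After rescaling by the median ratio the WT count was 12, with medians of -0.79 over the 31 and 0.01 over all genes, and the share of all genes was not counted again. There were 29 genes lower at day 5 in both genotypes, beside 20.3% of all genes. It was 29 with the median ratio rescaling, beside 29.8%, and 27 with equal sums, beside 19.0%. As deposited, 14 genes were lower by at least 0.5 in each, beside 4.21% of all genes.

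**Figure D3:**
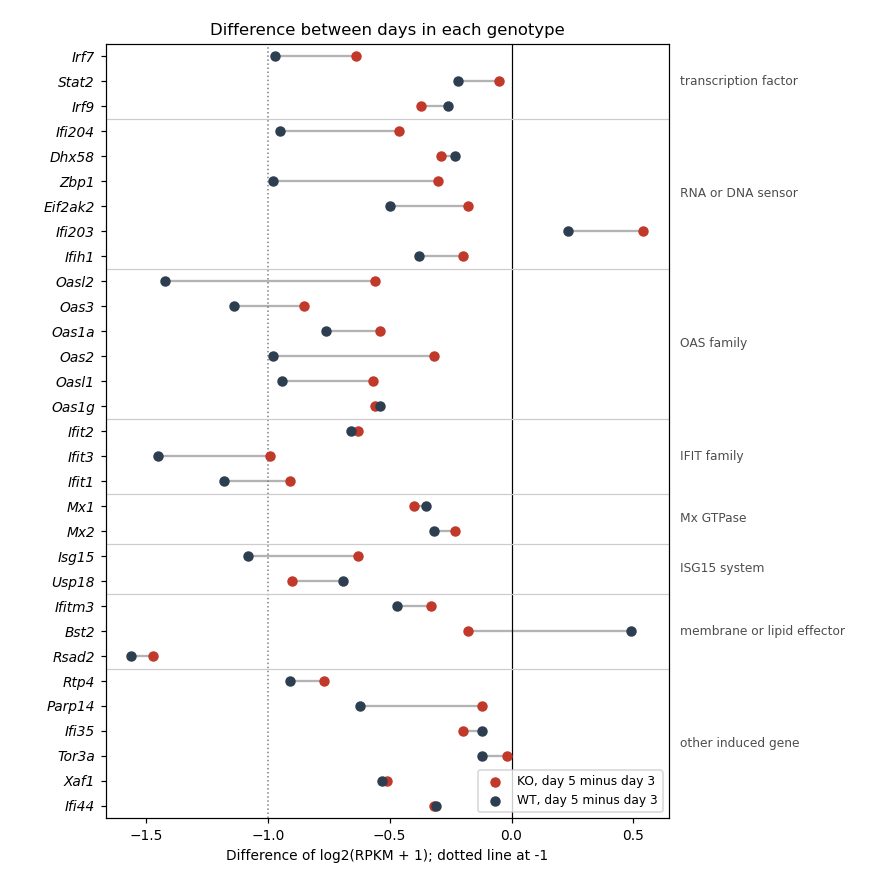
Difference of log2(RPKM + 1) between day 5 and day 3 for each gene, in KO (red) and WT (dark), joined by a line, with 1 library per group. Rsad2 lies farthest left in both, Ifi203 lies right of 0 in both, and Bst2 lies left of 0 in KO and right of 0 in WT.

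The change between days was larger in WT for most genes. In 22 of the 31, WT was lower at day 5 and by more than KO was, beside 17.9% of all genes, and in 28 under either rescaling, beside 33.6% of all genes with the median ratio and 23.4% with equal sums. Put another way, the KO minus WT difference moved upward from day 3 to day 5 by a median of 0.17, while that of all genes moved by -0.14. With the median ratio rescaling these medians were 0.31 and -0.01, and with equal sums they were 0.29 and -0.03. As deposited, 23 of the 31 moved upward, beside 33.3% of all genes. Under each rescaling 6 genes turned the sign of this shift (Irf9, Oas1g, Mx1, Ifi44, Ifi35 and Dhx58). It rose by 0.5 or more for 4 genes (Oasl2, Zbp1, Oas2 and Parp14), beside 4.13% of all genes, and dropped by that much for Bst2, beside 14.3%. These comparisons share libraries, so they are the same 4 values of a gene seen from another side.

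**Figure D4:**
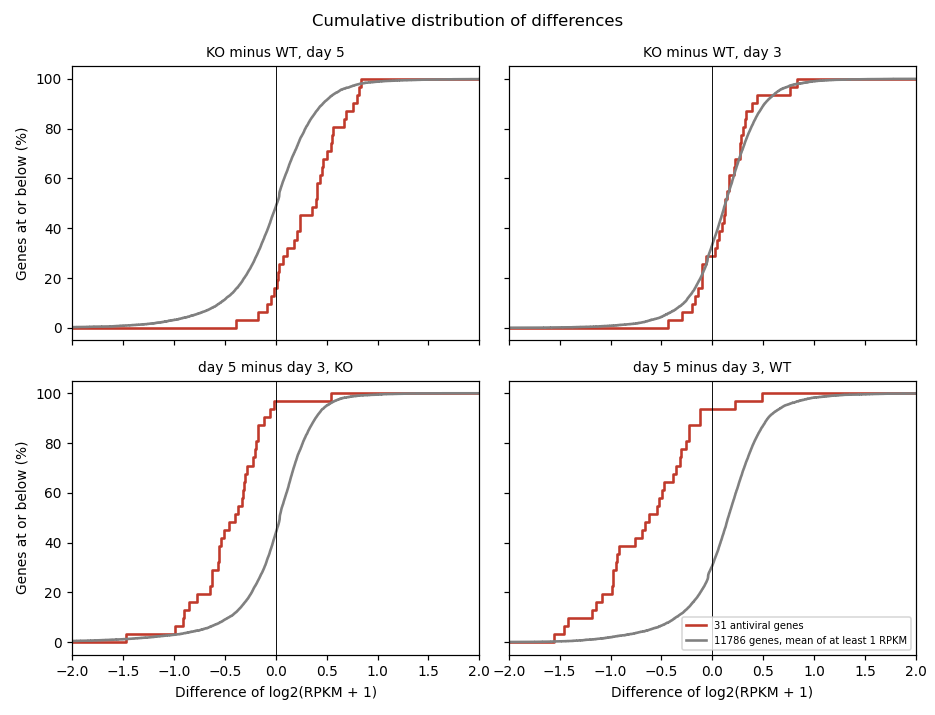
Cumulative share of genes (y axis, %) at or below each difference of log2(RPKM + 1) (x axis) for the 31 antiviral genes (red) and the 11786 genes passing the filter (grey). The red curve lies right of the grey one for KO minus WT at day 5 (medians 0.40 and 0.01), over it at day 3 (0.13 and 0.13), and left of it for day 5 minus day 3 in KO (-0.40 and 0.04) and WT (-0.62 and 0.16).

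Among the transcription factors, Irf7 had the clearest differences. Irf7, an amplifier of interferon production that is itself induced by interferon, stood at 93.6 RPKM in KO and 68.0 RPKM in WT at day 5, and at 147 RPKM in KO and 135 RPKM in WT at day 3. Between genotypes its ratio of KO to WT came to 1.38 (1.30 to 1.46) on day 5 and to 1.09 (1.04 to 1.14) on day 3, and its day 5 to day 3 ratio was 0.637 (0.606 to 0.670) in KO and 0.505 (0.478 to 0.534) in WT. Both day 5 libraries were thus below both day 3 libraries. Stat2 stood at 45.9 RPKM in KO and 44.9 RPKM in WT at day 5, and at 47.7 RPKM in KO and 52.7 RPKM in WT at day 3. Its highest library was only 1.17 times its lowest. Irf9, the DNA-binding part of the complex, stood at 26.7 RPKM in KO and 30.1 RPKM in WT at day 5, a ratio of 0.885 (0.811 to 0.965), and at 34.8 RPKM in KO and 36.3 RPKM in WT at day 3. Neither Stat2 nor Irf9 thus shared the higher KO level of Irf7 at day 5.

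Enzymes of the OAS family make oligoadenylate messengers that switch on the ribonuclease RNase L. The 6 genes grouped here, which include the OAS-like Oasl1 and Oasl2, had a median KO minus WT difference of 0.61 at day 5 and 0.20 at day 3. Oas1g held the largest genotype ratio at both days, at 7.15 RPKM in KO and 3.62 RPKM in WT at day 5 and at 11.0 RPKM in KO and 5.71 RPKM in WT at day 3. The KO level was 1.98 times that of WT (1.57 to 2.50) on day 5, and 1.92 times (1.60 to 2.32) on day 3. Its neighbour Oas1a, at a higher level, stood at 35.4 RPKM in KO and 21.9 RPKM in WT at day 5, a ratio of 1.61 (1.46 to 1.78), and at 51.8 RPKM in KO and 37.8 RPKM in WT at day 3, a ratio of 1.37 (1.27 to 1.48). Oas1 genes are close copies of each other, and how reads fitting several copies were counted is not given in the sources used here, so their separate values are uncertain. Oasl1, known in mouse to hold back Irf7 translation, stood at 16.4 RPKM in KO and 9.76 RPKM in WT at day 5, a ratio of 1.68 (1.46 to 1.93), and at 24.8 RPKM in KO and 19.6 RPKM in WT at day 3.

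The remaining OAS genes were higher in KO at day 5 and turned round or came close to level at day 3. Oasl2, an OAS-like antiviral protein, stood at 61.3 RPKM in KO and 41.3 RPKM in WT at day 5, a ratio of 1.49 (1.40 to 1.58). At day 3 it stood at 90.7 RPKM in KO and 112 RPKM in WT, a ratio of 0.811 (0.778 to 0.845), so the order of the genotypes was turned round between the days. Oas2 showed the same turn, with 18.6 RPKM in KO and 12.4 RPKM in WT at day 5 and 23.5 RPKM in KO and 25.4 RPKM in WT at day 3. Oas3, the family member with the longest chain of repeated domains, stood at 40.0 RPKM in KO and 31 RPKM in WT at day 5 and at 73.1 RPKM in KO and 69.7 RPKM in WT at day 3, with a day 5 to day 3 ratio of 0.547 (0.523 to 0.572) in KO and 0.445 (0.423 to 0.467) in WT.

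Sensors of viral nucleic acid had a median KO minus WT difference of 0.48 at day 5 and 0.13 at day 3. Zbp1, which binds nucleic acid in the Z form, stood at 35.0 RPKM in KO and 19.7 RPKM in WT at day 5, a ratio of 1.78 (1.52 to 2.09). At day 3 it stood at 43.4 RPKM in KO and 40.0 RPKM in WT, a ratio of 1.09 (0.958 to 1.23). Its day 5 to day 3 ratio was 0.807 (0.710 to 0.918) in KO and 0.493 (0.421 to 0.576) in WT. WT at day 5 thus lay apart below the other libraries. Ifih1, which encodes the double-stranded RNA sensor MDA5, stood at 9.21 RPKM in KO and 6.21 RPKM in WT at day 5 and at 10.8 RPKM in KO and 8.41 RPKM in WT at day 3. Dhx58, which encodes the regulator LGP2, had a KO to WT ratio of 1.16 (1.07 to 1.26) at day 5 and 1.21 (1.13 to 1.31) at day 3. Eif2ak2, the kinase PKR that halts translation on viral RNA, stood at 30.4 RPKM in KO and 21.7 RPKM in WT at day 5 and at 34.5 RPKM in KO and 31 RPKM in WT at day 3.

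Ifi204 and Ifi203 belong to a family of DNA-binding proteins encoded side by side and did not behave alike. Ifi204 stood at 96.9 RPKM in KO and 66.3 RPKM in WT at day 5, a ratio of 1.46 (1.39 to 1.54), and at 133 RPKM in KO and 129 RPKM in WT at day 3. Ifi203 was the one gene of the 31 that was higher at day 5 in both genotypes, with 32.5 RPKM in KO and 29.9 RPKM in WT at day 5 and 22.0 RPKM in KO and 25.4 RPKM in WT at day 3. Its day 5 to day 3 ratio was 1.48 (1.39 to 1.57) in KO and 1.18 (1.11 to 1.25) in WT. Members of this family are also alike in sequence, and the same limit of counting applies.

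Genes of the IFIT family, whose products bind viral RNA, had some of the largest differences between days. Ifit1 stood at 16.1 RPKM in KO and 11.6 RPKM in WT at day 5 and at 31.1 RPKM in KO and 27.6 RPKM in WT at day 3, a day 5 to day 3 ratio of 0.517 (0.470 to 0.568) in KO and 0.422 (0.378 to 0.469) in WT. Ifit2 stood at 31.9 RPKM in KO and 26.8 RPKM in WT at day 5 and at 49.8 RPKM in KO and 42.9 RPKM in WT at day 3. Ifit3 differed from both in its genotype order at day 3, with 42.8 RPKM in KO and 58.4 RPKM in WT, a ratio of 0.733 (0.648 to 0.829). At day 5 Ifit3 stood at 21.1 RPKM in KO and 20.7 RPKM in WT. Its close copy Ifit3b, not among the 31, stood at 4.97 RPKM in KO and 6.29 RPKM in WT at day 5 and at 14.5 RPKM in KO and 19.5 RPKM in WT at day 3. The counted length recovered for Ifit3 was 666 bases, shorter than its reference transcript, so its reads may be too few by a whole factor and its interval too wide.

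In the ISG15 system, Isg15 itself had a KO minus WT difference of 0.84 at day 5, close to that of Oas1g. Isg15, a ubiquitin-like protein attached to newly made proteins during the interferon response, stood at 37.3 RPKM in KO and 20.4 RPKM in WT at day 5, a ratio of 1.82 (1.56 to 2.14), and at 58.2 RPKM in KO and 44.3 RPKM in WT at day 3, a ratio of 1.31 (1.17 to 1.48). Usp18, which removes ISG15 and dampens the interferon receptor, stood at 19.2 RPKM in KO and 19.0 RPKM in WT at day 5 and at 36.7 RPKM in KO and 31.4 RPKM in WT at day 3. Both were lower at day 5 than at day 3 in each genotype, but at day 5 only Isg15 had an interval off 1 between genotypes.

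The Mx genes encode GTPases that block viral particles. Mx1, which carries a disrupting deletion in C57BL/6 mice and has a non-coding accession in the table (NR_003520), stood at 17.6 RPKM in KO and 16.7 RPKM in WT at day 5 and at 23.6 RPKM in KO and 21.6 RPKM in WT at day 3. Mx2 was the lowest of the 31, with 3.98 RPKM in KO and 4.03 RPKM in WT at day 5 and 4.82 RPKM in KO and 5.26 RPKM in WT at day 3. Neither Mx gene differed between genotypes by more than 0.13 on the log2 scale at either day.

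Rsad2, Bst2 and Ifitm3 act at membranes or on lipid droplets and followed 3 different courses. Rsad2, which encodes viperin, an enzyme that makes a chain-ending nucleotide, had the largest difference between days in both genotypes, with 15.0 RPKM in KO and 16.0 RPKM in WT at day 5 and 43.4 RPKM in KO and 49.0 RPKM in WT at day 3. Its day 5 to day 3 ratio was 0.345 (0.320 to 0.373) in KO and 0.326 (0.302 to 0.350) in WT, and its KO to WT ratio at day 5 was 0.940 (0.857 to 1.03). The most abundant gene, Ifitm3, which blocks virus entry in endosomes, stood at 497 RPKM in KO and 374 RPKM in WT at day 5, a ratio of 1.33 (1.27 to 1.39), and at 627 RPKM in KO and 519.7 RPKM in WT at day 3, a ratio of 1.21 (1.16 to 1.25).

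Bst2 ran against most of the group at day 5. Bst2 encodes tetherin, which holds budding viruses at the cell surface and in mouse also marks plasmacytoid dendritic cells. It stood at 158 RPKM in KO and 206 RPKM in WT at day 5, a ratio of 0.763 (0.720 to 0.810), and at 178 RPKM in KO and 147 RPKM in WT at day 3, a ratio of 1.22 (1.14 to 1.29). The 15 plasmacytoid markers, Bst2 among them, had a median KO minus WT difference of -0.71 at day 5, with 12 below 0. At day 3 their median was -0.44, with 10 below 0, where Bst2 itself was higher in KO. Beside these counts, 48.8% of all genes lay below 0 at day 5 and 33.4% at day 3. For day 5 minus day 3 in WT the plasmacytoid markers had a median of 0.49, with 13 above 0. In that comparison 30.7% of all genes lay below 0. Siglech, a receptor that defines these cells, stood at 15.7 RPKM in KO and 43.5 RPKM in WT at day 5 and at 11.6 RPKM in KO and 23.1 RPKM in WT at day 3. The part of these cells in the Bst2 result was not tested.

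The 6 remaining genes have less settled or more varied roles. Ifi44 was higher in KO by nearly the same amount at each day, at 13.3 RPKM in KO and 7.47 RPKM in WT at day 5, a ratio of 1.79 (1.56 to 2.05), and at 16.9 RPKM in KO and 9.48 RPKM in WT at day 3, a ratio of 1.78 (1.57 to 2.01). It lies on chromosome 3, as Nfkb1 does, and no other gene of the 31 does, and the part of that position in its values was not tested. Parp14, an ADP-ribosyltransferase, stood at 41.6 RPKM in KO and 31.1 RPKM in WT at day 5 and at 45.2 RPKM in KO and 48.4 RPKM in WT at day 3. WT at day 5 was thus the lowest library for Parp14, as it was for Zbp1. Tor3a, a torsin family ATPase, had a KO to WT ratio of 1.33 (1.23 to 1.44) at day 5 and 1.24 (1.15 to 1.34) at day 3, with differences between days of -0.02 in KO and -0.12 in WT.

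Rtp4, which binds viral RNA, stood at 39.7 RPKM in KO and 33.5 RPKM in WT at day 5 and at 68.5 RPKM in KO and 64.0 RPKM in WT at day 3, so both day 5 libraries were far below both day 3 libraries. Xaf1, a partner of the apoptosis inhibitor XIAP, stood at 10.7 RPKM in KO and 9.34 RPKM in WT at day 5 and at 15.7 RPKM in KO and 13.9 RPKM in WT at day 3. Ifi35 was nearly level, with 33.3 RPKM in KO and 34.4 RPKM in WT at day 5 and 38.3 RPKM in KO and 37.5 RPKM in WT at day 3.

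Upstream of these genes, transcripts of the interferons themselves were at the lowest values of the table. Of 21 interferon ligand genes, 17 stood at the value of 1 read in all 4 libraries, which is also what a gene without reads is listed at, and Ifnk held the most reads of any, 4 in WT at day 3. Ifnb1 stood at 2 reads in KO and 1 in WT at day 5, and at 1 read in each at day 3. Ifnar1 and Ifnar2, which form the type I receptor, were present at 30.0 and 80.4 RPKM in KO and 33.6 and 75.8 RPKM in WT at day 5, and at 26.2 and 60.5 RPKM in KO and 26.9 and 62.0 RPKM in WT at day 3. Among 9 receptor and kinase genes the median KO minus WT difference was -0.16 at day 5 and -0.03 at day 3, and Ifnlr1, the lambda receptor, was the one past 1, at 0.47 RPKM in KO and 3.33 RPKM in WT at day 5. Among 12 other STAT and IRF genes the day 5 median was -0.15, and 9 of the 12 were below 0, beside 48.8% of all genes. Irf8, a factor of dendritic cell development that is also among the conventional dendritic cell markers below, was the only gene past 1. It stood at 119 RPKM in KO and 241 RPKM in WT. Lower by at least 1 at day 5 were 3.22% of all genes.

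A wider list of 58 other interferon-stimulated genes shared the difference between days more than the difference between genotypes. Their median for day 5 minus day 3 was -0.30 in KO, with 48 of 58 below 0, beside 43.9% of all genes. In WT it was -0.30, with 47 below 0, beside 30.7%. Lower by at least 0.5 were 15 in KO, beside 9.15% of all genes, and 17 in WT, beside 6.7%. Among them was Ddx60, a helicase, with 7.19 RPKM in KO and 7.59 RPKM in WT at day 5. At day 3 Ddx60 had 21.0 RPKM in KO and 22.4 RPKM in WT. For KO minus WT the 58 genes had a median of 0.07 at day 5, where that of all genes was 0.01. Of the 58, 31 were above 0, beside 51.2% of all genes, and 27 below, beside 48.8%. At day 3 the median of the 58 was 0.08, where that of all genes was 0.13. There 33 of the 58 were above 0, beside 66.6% of all genes. At day 5 this list was thus nearly evenly divided between the genotypes, as all genes were. By 0.5, 8 of the 58 were higher, beside 8.54% of all genes, and 3 lower, beside 11.5%. Ifitm1, a relative of Ifitm3, had the largest difference of them, at 148 RPKM in KO and 39.9 RPKM in WT at day 5 and at 71.3 RPKM in KO and 33.4 RPKM in WT at day 3.

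**Figure D5:**
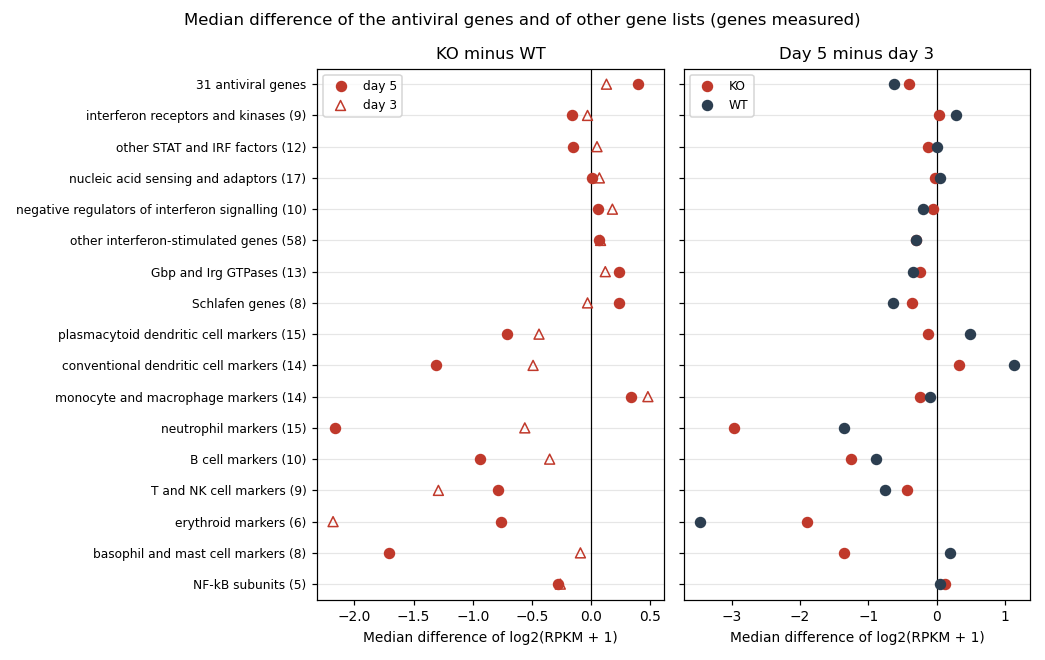
Median difference of log2(RPKM + 1) over the 31 antiviral genes and over the measured genes of other lists (number in brackets), for KO minus WT at day 5 and day 3 (left) and for day 5 minus day 3 in KO and WT (right). The antiviral genes lie at 0.40 (day 5) and 0.13 (day 3) on the left and at -0.40 and -0.62 on the right, while neutrophil markers lie at -2.16 and -0.56 on the left and at -2.96 and -1.36 on the right.

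Markers of several cell types moved in the same comparisons. The 15 neutrophil markers summed to 3137 RPKM in KO and 14119 RPKM in WT at day 5. At day 3 they summed to 24678 RPKM in KO and 34778 RPKM in WT. Of these, 15 of 15 were lower at day 5 by at least 1, beside 3.01% of all genes in KO and 2.05% in WT. Between genotypes at day 5, 15 of 15 neutrophil markers lay below 0, the opposite side from 26 of the 31 antiviral genes. Of all genes, 48.8% lay below 0 there. Conventional dendritic cell markers, which include Irf8 and Tlr3, summed to 437 RPKM in KO and 701 RPKM in WT at day 5. At day 3 they summed to 378 RPKM in KO and 399 RPKM in WT. Between genotypes at day 5, 13 of 14 measured lay below 0, beside 48.8% of all genes. Monocyte and macrophage markers summed to 7283 RPKM in KO and 6031 RPKM in WT at day 5. At day 3 they summed to 9012 RPKM in KO and 6733 RPKM in WT. At day 5, 9 of 14 were above 0 between genotypes, beside 51.2% of all genes. Plasmacytoid markers summed to 421 RPKM in KO and 622 RPKM in WT at day 5, and to 477 RPKM in KO and 459 RPKM in WT at day 3. Without Bst2 the other 14 summed to 263 RPKM in KO and 415 RPKM in WT at day 5, and to 298 RPKM in KO and 312 RPKM in WT at day 3. Marker lists of B cells, T and NK cells, red cells, and basophils and mast cells had medians of -0.94, -0.79, -0.76 and -1.71 for KO minus WT at day 5, and of -0.35, -1.29, -2.18 and -0.09 at day 3. No marker is listed at 0, and the part of any of these cells in the antiviral results was not tested.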

How the data were processed

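RNA from 4 cultures was sequenced, 1 library for each genotype and day. Tools and build named per the submitters' processing notes are HISAT2, SAMtools and mm9, while the sources used here state no version, counting tool, annotation or strand setting. The authors deposited RPKM values, per the file headers, for 26026 genes. Each value is a whole multiple of what 1 read is worth, so library totals, counted lengths and reads were recovered (within 0.003 reads of a whole number at the smallest length, and within 0.0185 where a multiple was used). Lengths are the smallest possible, or a multiple set by reference transcripts, and a gene without reads cannot be told from one with 1. Intervals treat reads as independent molecules, which PCR copies are not.

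Differences are of log2(RPKM + 1), so low genes show too small a change, and cover all genes averaging 1 RPKM or more. They are described by size limits of 1 and 0.5. Alternatives were other pseudocounts and filters, 2 rescalings and, added after seeing the data, leaving out the OAS family. Members, lists, limits and motifs were chosen with earlier results of these data known. All 31 members are named. From each other list up to 4 genes with the largest difference could be named, besides Nfkb1 and Ifnb1; Ifnar1, Ifnar2 and Ifnk were chosen after their values were seen. The recovery of reads, the limit of 1 and the search for the ISRE core were tested on simulated data, and the other procedures were not. Python 3.11.15, NumPy 2.4.6, pandas 2.3.3, SciPy 1.17.1 and matplotlib 3.10.9 were used. One gene of the pathway is not reported here.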

Additional observations from a re-analysis of the deposited data

Results flagged for a closer look

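For 5 genes the genotype difference ran in opposite directions at the 2 days with both counting intervals off 1. The difference between the days was not tested, and the share of all genes meeting this rule was not counted. By sign alone, 6 antiviral genes were higher in KO at day 5 and lower at day 3, beside 10.1% of all genes. The reverse held for 2 antiviral genes, beside 25.4% of all genes. The KO minus WT difference moved between day 3 and day 5 by 0.86 for Oasl2, by 0.66 for Oas2, by 0.50 for Parp14 and by 0.32 for Ifi203, each above 0 at day 5 and below 0 at day 3. For Bst2 it moved by -0.67, below 0 at day 5 and above 0 at day 3. Bst2 was also the one antiviral gene whose difference between days ran in opposite directions in the genotypes, -0.18 in KO and 0.49 in WT. The share of all genes with such opposite directions was not counted.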

How the results depend on the processing

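With 1 library per group, depth limits only the genes with few reads, and the lack of replicates limits every comparison. No paired analysis was possible because the labels carry no replicate numbers and each group has 1 library. The median over members at day 3 between genotypes changed sign with the median ratio rescaling (-0.04), which also moved the WT median between days to -0.79, the WT count past 1 to 12, the KO count past 1 to 2, and the shift of the genotype difference to 1 gene past 1 and 9 past 0.5. Equal sums of RPKM gave 8 genes past 0.5 for that shift, and a pseudocount of 0.1 RPKM gave 2 past 1 between days in KO. Leaving out the OAS family gave medians of 0.24 between genotypes at day 5 and -0.50 between days in WT, and counts past 0.5 of 5 at day 5, 1 at day 3 and 3 for the shift. The median shift, 0.17 beside -0.14 for all genes, was 0.31 beside -0.01 with the median ratio rescaling and 0.29 beside -0.03 with equal sums. Equal sums also put the day 3 median between genotypes at 0.04, beside 0.05 for all genes. For the counts past 1 or 0.5 after rescaling, the share of all genes was not counted again. Every other count past 1 or 0.5 stayed within 1.5 times of the reported one under these settings and under a pseudocount of 5 RPKM, no filter and a mean of at least 5 RPKM. For single genes the median ratio rescaling turned the sign of 8 differences at day 3 (Irf7, Oas3, Mx1, Ifi35, Zbp1, Rtp4, Ifi204 and Eif2ak2) and 1 at day 5 (Usp18), and equal sums turned 3 at day 3 (Oas3, Ifi35 and Ifi204), 1 at day 5 (Mx2) and 2 between days in KO (Stat2 and Tor3a).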

Other observations

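Other interferon-linked gene groups differed from the 31 genes in size and order. The Gbp and Irg families are GTPases that attack the vacuoles of pathogens, and 13 of them were measured. In KO, 4 were higher by at least 1 at day 5, beside 1.16% of all genes, and 1 at day 3, beside 0.976%. Their medians were 0.24 and 0.12, where those of all genes were 0.01 and 0.13. At day 5, 5 of the 13 lay below 0, beside 48.8% of all genes. The positions of these genes relative to Nfkb1 were not examined. Gbp5 stood at 17.4 RPKM in KO and 5.87 RPKM in WT at day 5, and at 17.5 RPKM in KO and 7.29 RPKM in WT at day 3, level between the days in KO. Among 8 Schlafen genes, Slfn4 stood at 3.64 RPKM in KO and 9.78 RPKM in WT at day 5 and at 78.1 RPKM in KO and 124 RPKM in WT at day 3, a larger difference between days than for any of the 31 genes. The Schlafen medians between days were -0.36 in KO and -0.64 in WT.

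Signalling genes around the pathway held some larger genotype differences than the antiviral genes, in both directions. Ikbke, a kinase that activates interferon regulatory factors, stood at 71.4 RPKM in KO and 36.4 RPKM in WT at day 5 and at 72.4 RPKM in KO and 44.3 RPKM in WT at day 3. Tlr3, an endosomal sensor of double-stranded RNA, stood at 2.64 RPKM in KO and 11.5 RPKM in WT at day 5. At day 3 it stood at 2.12 RPKM in KO and 4.33 RPKM in WT. Tlr3 is also among the conventional dendritic cell markers, whose median KO minus WT difference was -1.31 at day 5. Of the 17 nucleic acid sensing genes that include Ikbke and Tlr3, 2 were higher and 2 lower in KO by 0.5 at each day. Of all genes, 8.54% were higher and 11.5% lower by that much at day 5, and 10.8% and 4.43% at day 3. The 17 had medians of 0.01 and 0.07 for KO minus WT at day 5 and day 3. Socs3, an inhibitor of cytokine receptor signalling, stood at 10.9 RPKM in KO and 3.44 RPKM in WT at day 5 and at 8.97 RPKM in KO and 4.24 RPKM in WT at day 3, while the 10 negative regulators in its list, Usp18 among them, had medians of 0.06 and 0.18. The 5 NF-kB subunit genes, among them the disrupted Nfkb1 (-0.81 at day 5 and -0.41 at day 3), had medians of -0.28 and -0.26.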
